A study of Mus musculus with 24 samples.

Results

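Regions of open chromatin that were called in the adult slow-biased muscles and missed in the adult fast-biased ones numbered 227 of 459616 kept regions (0.0494%). They were chosen on peak calls alone. The peaks of all 24 libraries were merged, a region needed calls in at least 2 of them to be kept, and it was taken when all 6 adult slow-biased libraries and at most 1 of the 6 adult fast-biased libraries called it, or when 5 slow-biased and 0 fast-biased libraries did. The adult calls of these regions were therefore fixed by the choice and are described here with no test. The E18.5 calls, the positions and the neighbouring regions were not used to choose between slow-biased and fast-biased.

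The assay was ATAC-seq, which marks open DNA by where the Tn5 transposase can cut and tag it, and the tissue was 4 muscles of the hindlimb, taken from male mice of the inbred strain FVB/NJ. The soleus and the vastus intermedius were the slow-biased muscles, and the gastrocnemius and the vastus lateralis the fast-biased ones, as the study named them. Each muscle came from 3 adult mice (P56 in the series' design, 3 to 4 months in the protocol, which was not settled here) and, late in gestation at E18.5, from 3 litters, where a replicate pooled the muscles of both sides of up to 5 male embryos. All muscles with 1 replicate number were taken from a single adult or litter, no animal carried a transgene or received a treatment according to the labels, and nuclei came from undigested muscle, so every cell type in the tissue could contribute. In such bulk samples a smaller share of a cell type and a lower accessibility per cell cannot be told apart.

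Slow fibres contract with the slow myosin heavy chain, take up calcium through the pump encoded by Atp2a2 and rely on oxidative metabolism, whereas fast fibres use faster myosins and a different pump. Calcium signalling through calcineurin favours the slow program, and the transcription factor Sox6 represses slow genes in fast fibres. Distal regions that are open in 1 fibre type are candidate enhancers of such genes, but a call only says that a peak was found in a library, not how open the region was, and chromatin without a call may still be open.

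Few of the regions touched a promoter, and few kept regions in general did. Of the 223 on chromosomes for which RefSeq promoter windows were at hand (250 bases before to 50 after a gene's start), 5 overlapped a window (2.24%), against 3.65% of the other regions called in 5 to 7 adult libraries and 4.12% of all kept regions. The lower share rests on 5 regions, and its difference from the other shares was not tested. The 5 windows belonged to Gm33693, Alpl, Vpreb3, Gm51991 and Gm41158. The windows of Gm33693, Gm41158 and Alpl are shown because the regions on them had, in turn, no call in any E18.5 library, the strictest adult pattern (6 of 6 against 0 of 6), and calls in nearly all E18.5 libraries. They are RefSeq sequences of GRCm38.p6, the assembly of mm10, written 5′ to 3′ in the direction of the gene, and capitals mark matches to the motifs searched. Gm33693 and Gm41158 are lncRNA genes, and Alpl encodes tissue-nonspecific alkaline phosphatase. The windows lay at chr1:78740731-78741030 (minus strand), chr14:55468488-55468787 (minus strand) and chr4:137766426-137766725 (minus strand).
Gm33693: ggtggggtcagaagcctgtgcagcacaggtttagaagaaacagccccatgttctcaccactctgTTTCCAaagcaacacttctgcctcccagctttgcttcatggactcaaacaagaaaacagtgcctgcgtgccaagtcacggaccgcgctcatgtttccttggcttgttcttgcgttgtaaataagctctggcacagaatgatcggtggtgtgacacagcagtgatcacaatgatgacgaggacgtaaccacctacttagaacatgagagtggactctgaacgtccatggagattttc
Gm41158: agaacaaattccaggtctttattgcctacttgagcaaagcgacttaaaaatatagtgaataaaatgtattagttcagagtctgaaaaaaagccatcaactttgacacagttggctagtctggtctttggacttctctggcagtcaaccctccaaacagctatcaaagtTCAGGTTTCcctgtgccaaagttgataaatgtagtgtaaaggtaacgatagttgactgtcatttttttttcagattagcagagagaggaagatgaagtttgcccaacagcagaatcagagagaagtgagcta
Alpl: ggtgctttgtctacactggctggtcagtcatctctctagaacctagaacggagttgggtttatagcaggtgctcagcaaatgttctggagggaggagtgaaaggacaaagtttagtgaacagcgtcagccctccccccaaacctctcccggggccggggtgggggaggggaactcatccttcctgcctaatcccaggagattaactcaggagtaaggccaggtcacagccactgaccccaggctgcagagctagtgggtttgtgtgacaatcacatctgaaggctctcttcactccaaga

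The motifs searched on both strands were MEF2 (CTA, any 4 bases, TAG), E-box (CAGCTG), ERR (TCAAGGTCA), TEAD (GGAATG), MEF3 (TCAGGTTTC), AP-1 (TGANTCA), NFAT (TGGAAA), SRF (CCA, any 4 bases, TGG) and a glucocorticoid receptor motif (ACA, any 3 bases, TGT, any base, C), and in the 5 windows no matches overlapped each other. The capitals in the Gm33693 window are 1 match to the NFAT motif, read on the other strand, 186 bases before the gene's start, and 21.4% of the 32817 windows held that motif. In the Gm41158 window they are 1 match to the MEF3 motif 82 bases before the start, which 0.43% of windows held. The Alpl window held 0 matches, and the Vpreb3 and Gm51991 windows held 1 TEAD match each, present in 14.7% of windows. A match is a description of letters and not a binding site. The merged region on the Gm33693 window (chromosome 1, 78740426 to 78741199) was called in 6 of the adult slow-biased libraries, 1 of the adult fast-biased libraries and 0 of 12 E18.5 libraries. That on the Gm41158 window (chromosome 14, 55467566 to 55469671) was called in 6, in 0 and in 1 library. That on the Alpl window (chromosome 4, 137764974 to 137766690) was called in 5, in 0 and in 11 libraries, so its adult bias stood on a region that 6 of 6 slow-biased and 5 of 6 fast-biased E18.5 libraries called. Alpl, with 10 kb on each side, also held 1 region that met the mirrored rule, fast-biased over slow-biased.

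**Figure D1:**
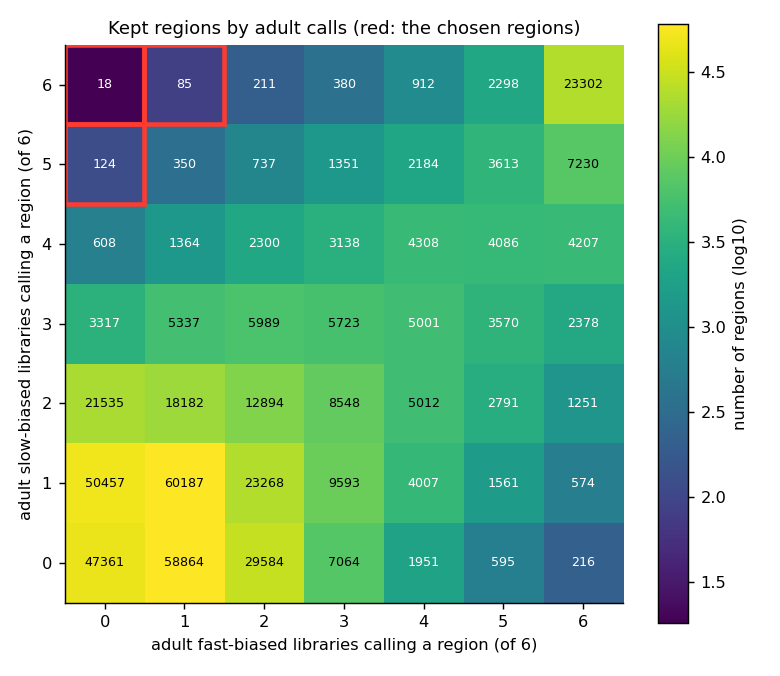
Number of kept regions by how many of the 6 adult slow-biased libraries (vertical axis) and of the 6 adult fast-biased libraries (horizontal axis) called them, with colour on a log10 scale. Red squares mark the 18, 85 and 124 chosen regions, and the mirrored corner at the lower right holds 216, 574 and 595.

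The 227 regions fell into 18 called in all 6 slow-biased and 0 fast-biased adult libraries (0.00392% of kept regions), 85 called in 6 and 1, and 124 called in 5 and 0. Just outside the rule lay 211 regions called in 6 and 2, 350 called in 5 and 1 and 608 called in 4 and 0. The mirrored rule, fast-biased over slow-biased, took 1385 regions (0.301%). Adult slow-biased lists were shorter on the whole, and libraries called 25.6% of all kept regions in the adult slow-biased group against 29.8% in the adult fast-biased group. These numbers changed when the lists were made equal in length. With lists thinned at random to 1 length the rule took 306 slow-biased and 392 fast-biased regions. Random thinning removed peaks from the longer lists whether or not other libraries shared them, so it can itself create missed calls. It does not stand for a lower depth. With the first peaks of each list in file order, as many as the shortest list holds, the rule took 291 and 898. This setting was chosen after seeing the data. The longest of the 24 lists, that of E18.5 soleus 2, held 228137 peaks and the shortest, that of adult vastus intermedius 1, 115333, and 0 pairs of lists were identical.

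Among the 124 regions called in 5 slow-biased libraries, the missing call was in a soleus library for 57 and in a vastus intermedius library for 67. By library the missed calls ran from 12 in soleus 1 to 25 in vastus intermedius 1, the library with the shortest list. Among the 85 regions with 1 fast-biased call, that call was in a gastrocnemius library for 53 and in a vastus lateralis library for 32. Vastus lateralis 2 gave only 5 of them, and gastrocnemius 1 gave 21. Adult soleus libraries called 91.6 ± 2.75% of the regions (SD, n = 3) and adult vastus intermedius libraries 90.2 ± 1.67% (n = 3), where the rule asked for at least 2 of the 3 libraries of each muscle.

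At E18.5 the regions were called about as often as kept regions in general. On average the E18.5 slow-biased libraries called 28.6% and the E18.5 fast-biased libraries 30.2% of them, against 29.7% and 30.6% of all kept regions. The comparison is limited by the filter. The slow-biased regions were kept through their adult calls, whereas 47361 kept regions had 0 adult calls and were kept through E18.5 calls alone. This raises the E18.5 shares over all kept regions. The regions that met the rule with lists thinned at random to 1 length were called by 43.5% and 42.6%, and those that met it with calls covering at least 50% of a region by 17.2% and 15.6%. E18.5 soleus libraries 1 and 2 called 27.8% and 41.4% of them and soleus 3 called 42 regions, the fewest of the 12 libraries, and E18.5 vastus intermedius libraries 30.8%, 32.2% and 21.1%. The E18.5 gastrocnemius libraries called 43.6%, 30.4% and 24.2%, and the E18.5 vastus lateralis libraries 29.1%, 24.7% and 29.5%. The ranges of the slow-biased and the fast-biased muscles overlapped. Taken by litter, slow-biased minus fast-biased came to -7.05, 9.25 and -7.05 percentage points in litters 1, 2 and 3, a mean of -1.62 ± 9.41 points (SD, n = 3 litters). Over all kept regions the same difference was -0.91 ± 6.91 points (n = 3), with litter 2 again on the other side of 0 from litters 1 and 3. In the adult, where the rule set it, the difference was 84.7 ± 1.21 points (SD, n = 3 animals).

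**Figure D2:**
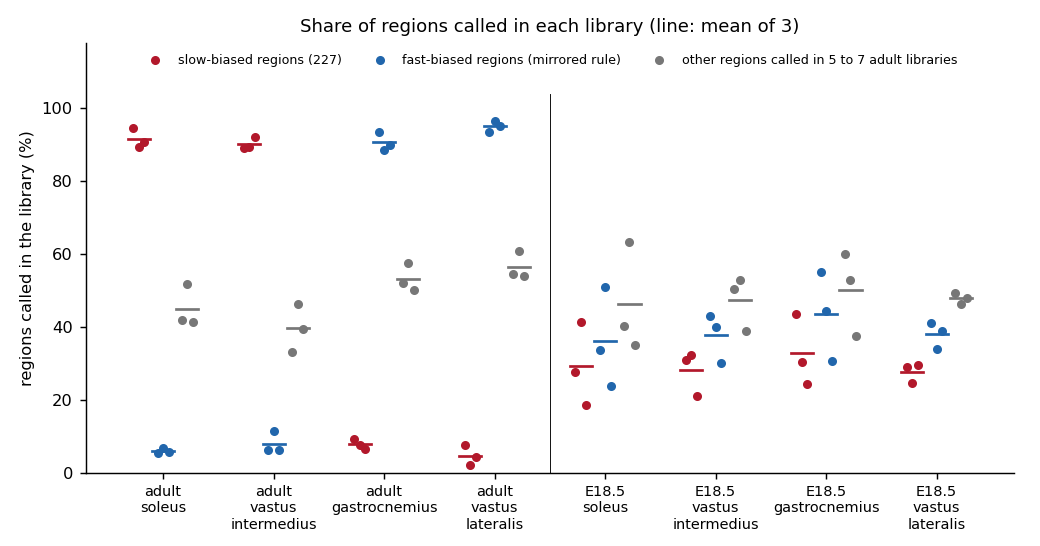
Share of regions called in each of the 24 libraries (vertical axis, percent), by stage and muscle, for the 227 slow-biased regions (red), the fast-biased regions of the mirrored rule (blue) and the other regions called in 5 to 7 adult libraries (grey). Points are libraries and lines are means of 3: the adult gap of 84.7 points between slow-biased and fast-biased muscles is set by the choice, and at E18.5 the red points of the 4 muscles overlap.

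No single region of the set passed a test between the muscle groups at E18.5. With 6 slow-biased against 6 fast-biased libraries, 47 of the 227 regions had a number of calls (5 to 7) at which Fisher's exact test, two-sided, can give a p under 0.05, and 0 of them passed after Benjamini-Hochberg adjustment over the 49905 kept regions with such numbers (0% of those passed). With 6 against 6 libraries the smallest p that Fisher's exact test can give is 0.00216. Only 26 of the 49905 regions reached it, too few for any region to pass the adjustment. The adjusted result therefore says nothing about single regions. At an unadjusted p under 0.05, 0 of the 227 regions passed. Of all kept regions, 117 passed with more calls in the slow-biased muscles (0.0255%) and 295 with more in the fast-biased ones (0.0642%). An exact test that kept the litters as blocks gave 0 as well, adjusted or not, with 17 of the regions testable. More slow-biased than fast-biased E18.5 libraries called 55 of the regions (24.2%), fewer called 77 (33.9%) and 95 were equal, whereas over all kept regions the shares were 29.2% and 31.6%. None of the 227 regions met the choosing rule at E18.5 (0, against 0.0255% of kept regions). With 6 against 6 libraries this rule and an unadjusted p under 0.05 in Fisher's exact test take the same regions, so this repeats the count above. The test with litters as blocks also gave 117 and 295 over all kept regions. With shares that low in general, 0 of 227 regions shows nothing particular to the set.

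Set against regions with the same number of adult calls, the slow-biased regions were called by fewer E18.5 libraries. They were called in a mean of 3.53 and a median of 3 of the 12 E18.5 libraries, against a mean of 5.74 and a median of 6 for the other 47906 regions called in 5 to 7 adult libraries, a mean of 4.66 for the fast-biased regions of the mirrored rule, and a mean of 3.62 with a median of 2 over all kept regions. The 4 libraries of litters 1, 2 and 3 called on average 32.8%, 32.2% and 23.3% of the slow-biased regions, against 50.01%, 53.8% and 39.8% of the regions with the same number of adult calls, which include the fast-biased ones. The difference was -18.4 ± 2.80 points (SD, n = 3 litters) and had 1 sign in every litter. It was -9.37 ± 1.58 points (n = 3) against the fast-biased regions. No E18.5 library called 53 of the slow-biased regions (23.3%), against 5.74% of the regions with the same number of adult calls, 17.5% of the fast-biased regions and 14.9% of all kept regions. Kept regions without adult calls always had E18.5 calls, which lowers the last of these shares.

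Narrow regions were called less at E18.5 in every set, and the slow-biased regions were slightly narrower than other regions called in 5 to 7 adult libraries. Their median width was 1181 bp (quartiles 918 and 1610 bp, range 472 to 3451 bp), against 1322 bp for the other regions called in 5 to 7 adult libraries and 1207 bp for the fast-biased regions. Among regions of up to 918 bp, the slow-biased ones averaged 1.86 E18.5 calls and those with the same number of adult calls 3.92. In the next quartile of width the means were 2.81 and 4.78, then 3.71 and 5.67, and above 1610 bp 5.75 and 7.51. The slow-biased regions thus had fewer E18.5 calls in each of the 4 width classes. Over all kept regions the median width was 745 bp. Width was measured after merging all 24 libraries, so E18.5 peaks could themselves widen a region. Slow-biased regions with 0 E18.5 calls had a median width of 1001 bp, and those with 6 to 12 had 1583 bp. The width classes are therefore not independent of the E18.5 calls and cannot separate width from them.

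**Figure D3:**
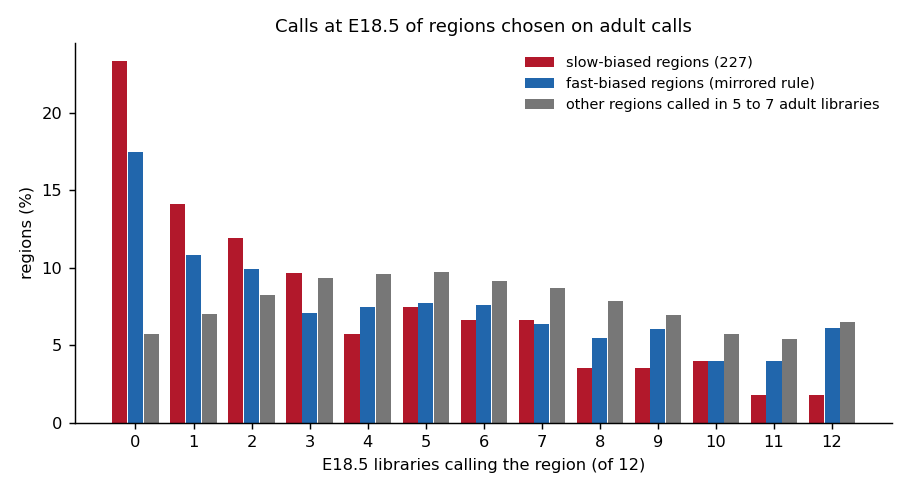
Percent of regions (vertical axis) by the number of E18.5 libraries that called them (horizontal axis, 0 to 12), for the 227 slow-biased regions (red), the fast-biased regions of the mirrored rule (blue) and the other regions called in 5 to 7 adult libraries (grey). No E18.5 library called 23.3%, 17.5% and 5.74% of them.

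The strictest regions included some with no E18.5 call at all. Of the 18 called in all 6 slow-biased and 0 fast-biased adult libraries, 6 were called in 0 of 12 E18.5 libraries and 0 in 12 of 12. By the width of their peaks, widest first, the first lay on chromosome 4 (15595540 to 15596896), 267772 bp from the lncRNA gene Gm29883, with a median peak of 917 bp over the 6 slow-biased libraries. The next lay on chromosome 1 (31011410 to 31013073), 6115 bp from the lncRNA gene Gm29669, with a median of 799 bp. One lay inside Dkk3 (chromosome 7, 112125661 to 112126520), which encodes a secreted protein of the Dickkopf family. Another lay on chromosome 11 (17737411 to 17738134), 200619 bp from Etaa1, which encodes an activator of the replication stress response. The remaining ones lay inside Rad51b (chromosome 12, 79541330 to 79542052), a DNA repair gene, and inside Uts2b (chromosome 16, 27354334 to 27354805), which encodes a urotensin peptide. These 6 thus lay partly far from genes, and none at a gene of the slow fibre list.

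At the other end, 4 of the 227 regions (1.76%) were called in all 12 E18.5 libraries, against 6.50% of the other regions called in 5 to 7 adult libraries and 7.46% of all kept regions, and they are named here after their values were seen. They lay inside Noa1, a mitochondrial GTPase gene (chromosome 5, 77300996 to 77302147), inside Cpm, a carboxypeptidase gene (chromosome 10, 117669260 to 117671889), and inside Ppm1h, a phosphatase gene (chromosome 10, 122861908 to 122863534). The fourth lay 4873 bp from the lncRNA gene Gm32492 (chromosome 19, 56679422 to 56681216). In the adult, 6 slow-biased libraries and 1 fast-biased library called the Cpm region and the one near Gm32492, and 5 and 0 called the Noa1 and Ppm1h regions. Such regions were called in late foetal muscle of both kinds and in at most 1 adult fast-biased library.

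By position the regions resembled kept regions in general and others with the same number of adult calls. Of the 227, 27 (11.9%, 95% Wilson interval 8.30 to 16.8%) lay within 1 kb of a gene end, 116 (51.1%, 44.6 to 57.5%) inside a gene and 84 (37.0%, 31.0 to 43.5%) between genes. The shares were 11.96%, 52.1% and 36.0% for the other regions called in 5 to 7 adult libraries, each inside the interval. Over all kept regions they were 10.98%, 50.7% and 38.3%, also inside. For the fast-biased regions they were 13.1%, 56.8% and 30.1%, the last below the interval. The intervals treat regions as independent, although all were called in the same libraries. The annotation gave gene starts and ends without exons, so exons, introns and UTRs were not told apart. Regions between genes had 0 E18.5 calls more often (25 of 84, 29.8%) than regions inside genes (22 of 116, 19.0%), a difference given with no test. The nearest gene was a lncRNA gene for 72 regions, and 30 regions lay over 50 kb and 13 over 100 kb from any gene.

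The regions were scattered, with few pairs. They had 223 different nearest genes, and no gene's locus, its body plus 10 kb on each side, held 3 or more of them. Chromosomes 1, 7 and 14 held 18 each, and X and Y held 0. The loci of 4 genes held 2 each, which are named after their values were seen: Clic5, Myoz2, Prkd1 and Pvt1. In only 1 pair did the regions lie within 5 kb of each other, inside Clic5, and 5 pairs lay within 25 kb. Outside these loci the closest pair lay on chromosome 14 (55336683 to 55339403 and 55347955 to 55348824, both called in 6 slow-biased and 1 fast-biased adult library), 95243 bp from Dhrs2 on the near side, and the Gm41158 region followed 118741 bp further on.

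Genes of the slow fibre program carried 3 of the 227 regions. The slow fibre list held 22 genes, whose loci contained 428 kept regions. Of the slow-biased regions 3 lay there (1.32%, against 0.0931% of all kept regions and 0.125% of the regions with the same number of adult calls), at Myoz2 and Atp2a2. Of the fast-biased regions 0 lay there. The fast fibre list held 20 genes with 357 kept regions, and 0 slow-biased but 11 fast-biased regions lay there (0.794% of the fast-biased regions, against 0.0777% of all kept regions). Which slow genes were counted depended on the processing. With calls that cover at least 50% of a region, 5 slow-biased regions lay at the slow fibre list, at Csrp3, Actn2, Mybpc1 and Myom3. With the first peaks of each list 8 did, at Myh7, Myh7b, Myl2, Tnnt1, Atp2a2, Myoz2 and Csrp3. Regions built from the adult lists alone gave 4, joining peaks up to 100 bp apart 3, and lists thinned at random to the shortest length 4. In these 5 alternatives and in the full lists, 0 fast-biased regions lay at slow fibre genes and 0 slow-biased regions at fast fibre genes. With only 0.0777% of all kept regions at fast fibre genes, 0 of 227 shows nothing particular to the set. The same limit holds for the 0 fast-biased regions at slow fibre genes, which held 0.0931% of all kept regions.

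Myoz2 encodes calsarcin-1, a Z-disc protein of slow and cardiac muscle that binds calcineurin, and its locus held both of its slow-biased regions inside the gene. The larger (chromosome 3, 123028053 to 123029949) had called peaks covering 642, 392 and 1150 bp in the 3 adult soleus libraries and 1020, 702 and 627 bp in the 3 adult vastus intermedius libraries. A single fast-biased library, adult gastrocnemius 1, called it, with a peak of 746 bp, and among the E18.5 libraries only vastus intermedius 1 did, with 236 bp. The smaller (123018681 to 123019688) was called in all adult slow-biased libraries but soleus 2, with 680 and 747 bp in soleus 1 and 3 and 771, 520 and 478 bp in vastus intermedius 1, 2 and 3, and in 0 fast-biased and 0 E18.5 libraries. Between these lay no further kept region, and a neighbour directly before the smaller (123017301 to 123018429) was called in 4 slow-biased and 0 fast-biased adult libraries, just outside the rule.

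The wider Myoz2 locus held 10 kept regions, and 8 of them were called by more slow-biased than fast-biased adult libraries, 1 by fewer and 1 equally. The number of regions called per library was 6, 4 and 7 in the adult soleus and 3, 6 and 4 in the adult vastus intermedius, against 4, 1 and 1 in the adult gastrocnemius and 1, 0 and 1 in the adult vastus lateralis. Gastrocnemius 1 alone reached the slow-biased range. At E18.5 it was 0, 2 and 1 in the soleus and 1, 0 and 0 in the vastus intermedius, against 1, 0 and 1 in the gastrocnemius and 1, 0 and 1 in the vastus lateralis. The locus was thus nearly without calls in late foetal muscle of either kind.

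Atp2a2 encodes the calcium pump of slow and cardiac muscle. Its slow-biased region lay inside the gene (chromosome 5, 122480847 to 122483762) and was 2916 bp wide after merging. Called peaks covered 2382, 674 and 1262 bp of it in the adult soleus and 1580, 850 and 1167 bp in the adult vastus intermedius, against a single peak of 337 bp in adult vastus lateralis 1. At E18.5 it was called in 1 soleus and 2 vastus intermedius libraries, against 1 gastrocnemius and 3 vastus lateralis libraries. The region therefore had a slow bias in the adult calls and 3 against 4 calls at E18.5. Of the 27 kept regions at the locus, 17 were called by more slow-biased than fast-biased adult libraries and 3 by fewer, and the 2 at the end of the locus around 122501008 to 122512179 were called in all 24 libraries.

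Clic5, which encodes a chloride intracellular channel protein, held the closest pair. Both regions (chromosome 17, 44216909 to 44217789 and 44219799 to 44220657, 2009 bp apart) were called in 6 adult slow-biased, 1 adult fast-biased and 0 of 12 E18.5 libraries. The 1 fast-biased call came from gastrocnemius 2 for the lower region and from gastrocnemius 3 for the higher. Directly before the pair, a region at 44214643 to 44216065 was called in 6 slow-biased and 6 fast-biased adult libraries and in 0 E18.5 libraries, so the 3 shared the absence of E18.5 calls and differed in the adult fast-biased muscles.

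**Figure D4:**
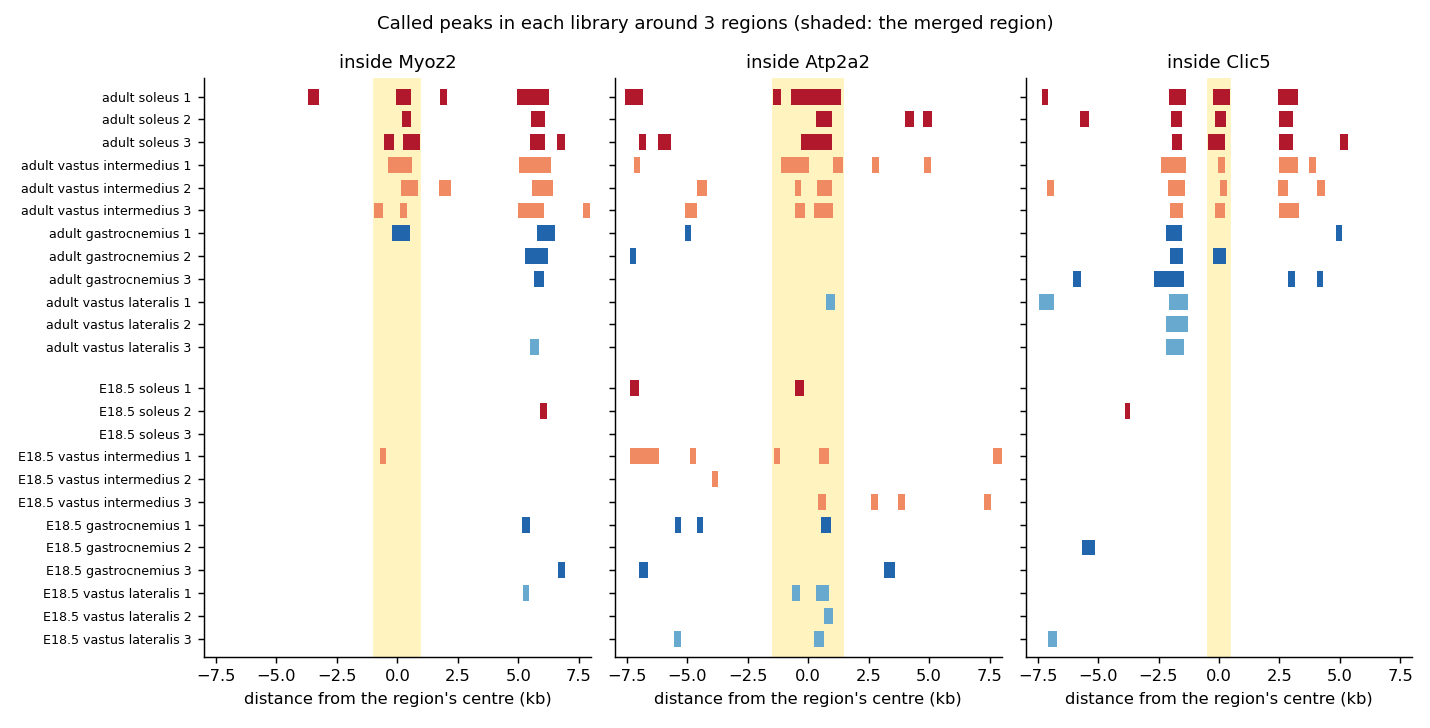
Called peaks (bars) in each of the 24 libraries (rows) around the larger Myoz2 region, the Atp2a2 region and the lower Clic5 region (shaded), by distance from the region's centre in kb. Reds are slow-biased muscles and blues fast-biased ones: all 6 adult slow-biased rows have a peak in each shaded region, and 1 adult fast-biased row does.

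Prkd1, which encodes protein kinase D1, a kinase of class IIa histone deacetylases, showed the same arrangement. Its regions (chromosome 12, 50513827 to 50514992 and 50520929 to 50522144) were called in 6 slow-biased and 1 fast-biased and in 5 slow-biased and 0 fast-biased adult libraries, and in 0 and 1 of 12 E18.5 libraries. A region before them, at 50511230 to 50512500, was called in all 12 adult and in 0 E18.5 libraries. Pvt1, a lncRNA gene beside Myc, held its pair at 62181051 to 62181960 (5 slow-biased and 0 fast-biased) and 62205965 to 62207108 (6 and 1) on chromosome 15, with 2 and 3 of 12 E18.5 libraries calling them.

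Regulators of fibre type carried 3 of the slow-biased regions (1.32%) and 12 of the fast-biased ones (0.866%), against 0.337% of all kept regions and 0.417% of the regions with the same number of adult calls. One lay inside Sox6 (chromosome 7, 115594976 to 115595959), a long locus of 110 kept regions where 16 were called by more slow-biased than fast-biased adult libraries and 60 by fewer. That region was called in 2 adult soleus and 3 adult vastus intermedius libraries and in 0 fast-biased ones, with peaks of 272 to 468 bp, and at E18.5 in 2 slow-biased and 2 fast-biased libraries. The same locus held 1 fast-biased region, called in 0 slow-biased and all 6 fast-biased adult libraries (115807323 to 115808740). Another lay inside Eya1, a transcriptional coactivator in the fast fibre program (chromosome 1, 14287787 to 14288736), with 6 slow-biased and 1 fast-biased adult calls and 0 and 1 calls at E18.5. The other lay 2099 bp from Fnip1, a partner of folliculin whose loss in the mouse gives more slow and oxidative fibres (chromosome 11, 54435480 to 54436008), with 5 and 0 adult calls and 0 of 12 E18.5 calls. With lists thinned to 1 length the 3 gave way to 1 at Hdac9, and with the first peaks to 1 at Ppargc1a.

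Most fixed loci of the slow program held none of the regions under the rule, but some came close. Each locus is represented below by its region with the largest slow-biased excess. At Myh7, the slow myosin heavy chain, the region with the largest gap (chromosome 14, 54996712 to 54998158) was called in 6 slow-biased and 2 fast-biased adult libraries, and the same counts held for the best region at Myh2, the type IIa myosin, and at Csrp3, a muscle LIM protein. Tnnt1, the slow troponin T, and Ppargc1a, a coactivator of mitochondrial genes, each had a region called in 5 and 1. Myl2, a slow and cardiac myosin light chain, reached 5 and 2, Myl3 6 and 3, Tnni1, the slow troponin I, 5 and 3, and Tnnc1, the slow troponin C, 3 and 0. At E18.5 the best Myh7 region was called in 5 slow-biased and 6 fast-biased libraries and the best Tnni1 region in 6 and 6. At Ppargc1a, a locus of 138 kept regions, 67 were called by more slow-biased than fast-biased adult libraries and 22 by fewer. Counted in this way, regions with more slow-biased calls also prevailed at Myh7 (14 against 7), Myh2 (10 against 5), Csrp3 (9 against 3) and Myl2 (7 against 5). Regions with more fast-biased calls prevailed at Tnni1 (4 against 9), Tnnt1 (3 against 5), Myl3 (3 against 5) and Tnnc1 (2 against 3). These counts, and those at Sox6, Atp2a2 and Myoz2, were not set against the same count over all kept regions. Adult slow-biased libraries called 25.6% and adult fast-biased ones 29.8% of all kept regions. A small lean to the fast-biased side is therefore not particular to a locus.

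Oxidative metabolism, glycolysis, and growth and atrophy, 3 other lists, held 0 of the slow-biased regions, against 4, 3 and 6 of the fast-biased ones (0.289%, 0.217% and 0.433%). The loci of these lists held 0.199%, 0.0535% and 0.144% of all kept regions. The calcium and excitation list (0.193% of all kept regions) held 2, the Atp2a2 region and one inside Kcnma1, a calcium-activated potassium channel gene (chromosome 14, 23958985 to 23959612, 5 slow-biased and 0 fast-biased adult calls, 0 of 12 at E18.5). The Kcnma1 locus held 204 kept regions, among them also 1 fast-biased region. Adult slow-biased libraries called a mean of 64.3 of them and adult fast-biased libraries 68.2. The limb patterning and Hox list (0.0674% of all kept regions) held 1, inside the homeobox gene Meis1 (chromosome 11, 18946537 to 18948151, 6 and 1 adult calls, 1 and 1 at E18.5). In all, 11 of the 227 regions lay at a gene of any of the 18 lists. How many of all kept regions lay at a gene of any of the 18 lists was not counted, so whether 11 is many or few cannot be told. Chosen after their values were seen, further regions lay inside other genes with known roles in muscle: Stim1, a calcium sensor of the reticulum, Cacna1c, a calcium channel, Alpk3, a kinase of striated muscle, Dtnb, a dystrobrevin, Ablim1, an actin-binding protein, and Ppp1r12b, a myosin phosphatase subunit. At the end of Ndufs4, a gene of respiratory complex I that the oxidative list did not hold, a region was called in 6 slow-biased and 1 fast-biased adult library and in 0 of 12 E18.5 libraries. Near Prox1, a regulator of the slow program, a region inside the lncRNA gene Prox1os lay 10606 bp away, just beyond the locus, and was called in 5 slow-biased and 0 fast-biased adult libraries and in 1 and 2 at E18.5.

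Markers of other cell types carried 3 of the regions, 1 each (0.441%) at the fibro-adipogenic, tendon and immune lists, whose loci held 0.0357%, 0.0172% and 0.0255% of all kept regions. Of the kept regions at these lists, adult slow-biased libraries called 30.5%, 25.9% and 23.1%, and adult fast-biased ones 35.1%, 32.3% and 26.4%. The lists as a whole thus leaned to the fast-biased side, as did all kept regions (25.6% against 29.8%). One lay inside Pdgfra, a receptor of fibro-adipogenic cells (chromosome 5, 75183994 to 75185137), called in 5 slow-biased and 0 fast-biased adult libraries and in 5 and 6 at E18.5. Another lay 6063 bp from Comp, a matrix protein of tendon and cartilage (chromosome 8, 70366417 to 70367485), with 6 and 1 adult calls and 2 and 3 at E18.5. The other lay 1114 bp from Itgax and within 10 kb of Itgam, integrins of myeloid cells (chromosome 7, 128127445 to 128128412), with 5 and 0 adult calls and 0 of 12 at E18.5. The lists of muscle fibre, satellite cell, endothelial, smooth muscle and pericyte, Schwann cell and neuron, adipocyte and erythroid markers held 0, and their loci held between 0.0087% and 0.074% of all kept regions. Counted as genes with a call within 1 kb of an end, 6 to 7 of 8 muscle fibre markers were called in each adult slow-biased and fast-biased library. Of the 10 fibro-adipogenic markers it was 7 to 8 in adult slow-biased and 7 to 10 in adult fast-biased libraries, of the 8 endothelial markers 5 to 8 and 7 to 8, and of the 8 immune markers 3 to 7 and 3 to 6. The ranges overlapped, and the part of other cell types in the regions was not tested.

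Around the slow-biased regions, neighbouring regions were called less by the slow-biased than by the fast-biased adult libraries in all 3 animals, but by a smaller margin than kept regions in general. The 3082 other kept regions centred within 25 kb were called by 30.1% of adult slow-biased and 32.3% of adult fast-biased libraries, a difference of -2.15 ± 3.22 points (SD, n = 3 animals; -5.86, -0.50 and -0.08), against -4.26 ± 3.39 points over all kept regions. Taken within each animal, the difference near the slow-biased regions exceeded that over all kept regions by 2.31, 1.96 and 2.07 points, a mean of 2.11 ± 0.18 (n = 3). Near the fast-biased regions the same subtraction gave -1.33, -2.14 and -3.30 points (-2.25 ± 0.99, n = 3 animals). At E18.5 the same measure was -0.61 ± 0.49 points near the slow-biased and -0.85 ± 0.55 points near the fast-biased regions (n = 3 litters), below 0 near both. By distance the adult excess near slow-biased regions did not fall evenly: it was 0.85 ± 0.84 points at 2.5 to 5 kb, 3.17 ± 1.05 points at 5 to 10 kb, 1.81 ± 0.39 points at 10 to 25 kb and 0.24 ± 0.90 points at 25 to 50 kb (n = 3 each). At 0 to 2.5 kb, from only 230 regions, it was 3.32 ± 3.31 points, with adult 3 on the other side of 0 (-0.46). The neighbours were not chosen by the rule but share the libraries and, where they lie in the same gene, the locus.

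**Figure D5:**
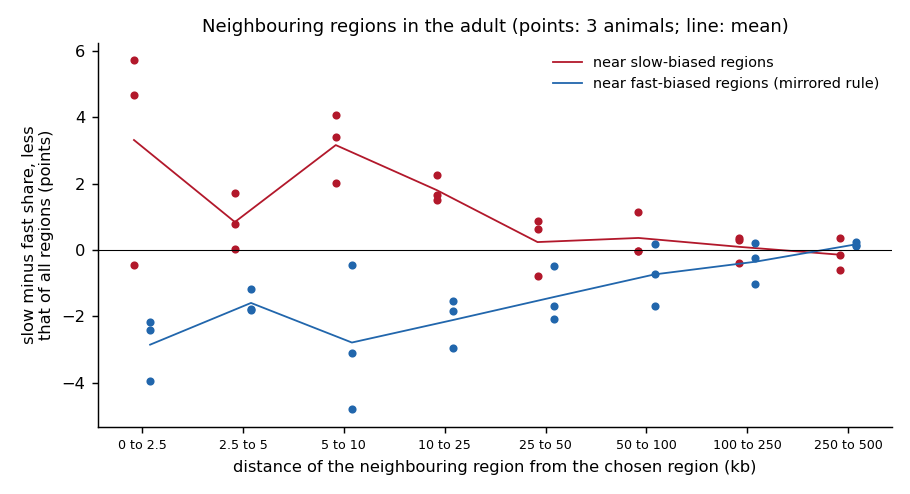
Adult slow-biased minus fast-biased share of libraries calling the regions near the slow-biased (red) and fast-biased (blue) regions, less the same difference over all kept regions, in percentage points (vertical axis), by distance in kb (horizontal axis). Points are the 3 animals and lines their means: at 10 to 25 kb the means are 1.81 and -2.11 points, and at 250 to 500 kb -0.14 and 0.18 points.

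How firmly a region belonged to the set depended on how a call was made. Of the 227 regions, 202 also met the rule in regions built from the adult lists alone and 199 when peaks up to 100 bp apart were joined. With the first peaks of each list 111 did, with lists thinned at random to 1 length 69, and with calls that cover at least 50% of a region 17 (7.49%). All 5 alternatives kept 2 of the 227, the Gm33693 region and the higher of the Clic5 pair, and 4 of the 5 kept a further 44, among them the Atp2a2 region, the lower Clic5 region and those at Dkk3, Rad51b, Uts2b and Ndufs4. The smaller Myoz2 region, the larger Myoz2 region and the Sox6 region were kept in fewer.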

How the data were processed

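ATAC-seq libraries of 4 hindlimb muscles of 3 adult mice and 3 E18.5 litters were analysed from the authors' deposited peak lists, 1 per library. The lists hold positions on mm10 and no score, count or signal. Of the authors' tools, the submitters' processing notes name the peak caller MACS2 2.1.1, bedtools 2.25.0, Bowtie2 2.4.4 for alignment, Picard and SAMtools 1.14.0, and Trimmomatic 0.39.0 with FastQC 0.11.5. Of call thresholds, a read shift for the transposase and read depths the sources used here say nothing, so depth behind a call is unknown and list length stood in for it.

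Groups followed the labels. Peaks on chromosomes 1 to 19, X and Y were merged where they overlapped or touched (930761 regions), those called in at least 2 libraries were kept (459616), and 1 bp of overlap with a peak counted as a call (python 3.11.15, numpy 2.4.6, pandas 2.3.3, scipy 1.17.1, matplotlib 3.10.9). The members, the 18 gene lists (273 names, 273 matched) and the tests were chosen with earlier results of these data known. Genes were the 34610 protein-coding and lncRNA genes of the RefSeq annotation of GRCm38.p6. Regions were tested at E18.5 with Fisher's exact test, two-sided, Benjamini-Hochberg adjusted over regions with 5 to 7 calls. The code, tested on simulated calls of 20000 regions at that design, recovered 78.5% of 200 regions with a known change at an adjusted p under 0.05. These changes were strong and made up a larger part of the regions than in the data. There, 26 of 49905 tested regions had the smallest possible p, so the 78.5% does not measure the power of the E18.5 test.

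Same-numbered libraries came from the same adult or litter per the labels' protocols, so the numbers pair the samples. Deviations of E18.5 calls from each muscle's mean correlated at 0.05 on average between same-litter libraries (-0.01 to 0.11 over 18 pairs). Between libraries of different litters and different muscles the mean was -0.03. Deviations from a mean over 3 litters sum to 0, so the -0.03 largely follows from the 0.05 and is no separate comparison. The test stratified by litter was the alternative with this block. Named genes were those of the slow fibre, fast fibre, regulator and oxidative lists with a member, 12 fixed loci, loci with 3 or more members (0 met this), members past the E18.5 threshold (0) and the nearest genes of regions called in 6 of 6, 0 of 6 and 0 or 12 of 12 E18.5 libraries. Other genes were named after their values were seen. Sequence at regions other than promoter windows was not used here. No other value columns were present.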

Additional observations from a re-analysis of the deposited data

Results flagged for a closer look

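The share of the slow-biased regions called in E18.5 gastrocnemius 1 (43.6%) stood apart from the other 5 E18.5 fast-biased libraries, which called 24.2% to 30.4%. Its gap to the nearest library was 0.68 of the range of the 6, above Dixon's 95% critical value for 6 samples, and chance flags about 1 in 20 such groups. That library also called 38.2% of all kept regions and 60.1% of the other regions called in 5 to 7 adult libraries, and its list of 211354 peaks was the longest of the 6. Whether list length accounts for the share was not tested.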

How the results depend on the processing

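Of 89 values recomputed under another setting, 66 stayed within the error of the main value or within 1.5 times the main count and 23 moved, among them 1 whose sign turned, the difference of the neighbouring regions. With calls covering at least 50% of a region, 98 regions met the rule, E18.5 slow-biased and fast-biased libraries called 17.2% and 15.6% of them, 21.4% lay at a gene end and 37.8% inside a gene, and 5 lay at slow fibre and 1 at oxidative genes. With lists thinned at random to 1 length the E18.5 shares were 43.5% and 42.6%. With 6 of 6 and 0 of 6 alone, 18 regions were called by 17.6% and 13.9% of E18.5 slow-biased and fast-biased libraries, and 38.9% lay inside genes and 44.4% between them. At least 5 of 6 and at most 1 of 6 gave 577 regions. A gene-end distance of 2.5 kb gave 19.8% at gene ends, and 50 kb flanks gave 5 regions at fibre type regulators and 2 at oxidative genes. The first peaks of each list, a setting chosen after seeing the data, gave 8 at slow fibre genes, 1 at regulators and 1 at oxidative genes, and 1.83 points for the neighbours of the regions, where the full lists gave -2.15. Relative to all kept regions the neighbours' difference kept its sign in all 5 ways of building regions (1.22 to 3.25 points).

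Leaving out an adult and asking for 4 of 4 and 0 of 4 gave 216 to 249 regions, of which 82 to 93 were among the 227, and the neighbours' difference ran from -4.12 to -1.37 points. Leaving out a litter gave E18.5 shares of 24.6% to 33.0% in slow-biased and 27.2% to 31.9% in fast-biased libraries, and a difference of -7.05 to 1.10 points. That untested difference, -1.62 points in the full lists, also lay above 0 with 50% cover (1.53), adult-built regions (0.30), thinned lists (0.87) and 6 of 6 and 0 of 6 alone, in each case by less than its SD in the full lists. Without litter 3, 1 of the 227 regions passed an unadjusted p under 0.05 in Fisher's exact test. The share of all kept regions passing in that setting was not computed, so nothing is read from this count. With the litters as replicate block 0 regions passed. The cause of these differences was not tested. Read depth per library is unknown, so whether a missed call reflects depth cannot be told.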

Other observations

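The order of peaks in the deposited lists is not explained in the sources used here, but peaks near the top were shared by more libraries: those in the top 10% of a list lay in regions called by 20.4 to 23.4 libraries on average, and those in the last 10% in regions called by 4.81 to 9.25. In adult slow-biased lists the slow-biased regions had a median position 40.8% of the way down (25.5% in soleus 1 to 49.6% in vastus intermedius 2), against 51.7% for the other regions called in 5 to 7 adult libraries and 43.3% for all kept regions. In adult fast-biased lists, the few that were called stood at 51.3%, against 49.4% and 42.9%. The slow-biased regions overlapped 0 of 1005 annotated miRNA hairpins.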
